A study of Mus musculus with 6 samples.

Results

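The genes described here drive the copying of DNA and the division of the cell: 57 listed genes, sorted by function into 23 S-phase genes, 6 regulators of the step from G1 into S phase, and 28 mitotic genes. Each gene was represented by the probe set with the highest mean over 6 arrays. A probe set naming a single gene was found for 54 of the 57, out of 22180 genes so measured on the array, and Rfc4, Ccne2 and Ccnb1 had none. RNA came from whole livers of mice that lack CREB-H (genotype CREB-H KO, allele Creb3l3tm1.1Sad/J, 8 weeks old per the labels). The mice had received a liver-directed adeno-associated virus by intraperitoneal injection 2 weeks before. The control virus, AAV-GFP, was given to 3 mice. The other 3 received AAV-CREB-H-ΔTC, which supplies CREB-H as a form that is already active. All 6 mice therefore lacked the endogenous factor and had received a virus, and the labels do not name the promoter that drives the transgene. CREB-H is a liver transcription factor that is held in the endoplasmic reticulum membrane until it is cleaved.

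Dividing cells switch on these genes in waves. Transcription factors of the E2F family act first, on genes that load and fire replication origins and supply deoxynucleotides. The MuvB complex, together with B-MYB and FOXM1, then acts through short promoter elements named CHR on the genes of spindle, chromosome and cytokinesis. Most hepatocytes of the adult liver rest outside the cycle, so that both waves are low until the liver is injured or partly removed.

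Promoter sequences show this division among the members. Windows from RefSeq (build GRCm38.p6), running from 250 bases before to 50 bases after the start of transcription, were held for 45 of the 57 members. On either strand, an E2F site was counted as TTTCCCGC, TTTCGCGC, TTTGGCGC, TTTGCCGC or TTTGGCGG, and a CHR as TTTGAA or TTCGAA. E2F letters stood in 9 of 19 S-phase windows (47.4%), in 1 of 22 mitotic windows (4.55%) and in 3.18% of all 27025 genes with a window. CHR letters stood in 17 of 22 mitotic windows (77.3%), in 4 of 19 S-phase windows (21.1%) and in 21.7% of all genes. The CCAAT box, which binds NF-Y, was counted as CCAAT on either strand. It was found in 14 S-phase windows (73.7%) and 18 mitotic windows (81.8%), against 41.1% of all genes. The full cAMP response element TGACGTCA, a site for factors of the CREB family, was found in the windows of Mcm5, Cenpe and Ndc80, which is 6.67% of members against 2.03% of all genes. Sites could overlap, and a gene with any match was counted once. A match describes letters and does not show that a factor binds.

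**Figure D1:**
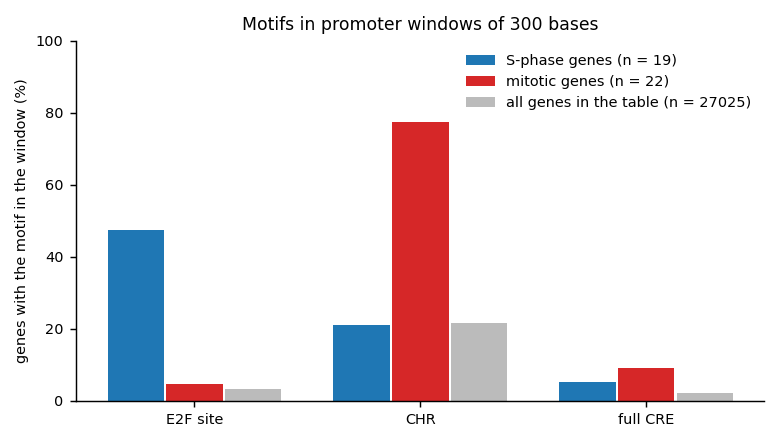
Share of genes (%, vertical axis) whose promoter window holds an E2F site, a CHR or a full cAMP response element (CRE), for S-phase genes (blue), mitotic genes (red) and all genes of the RefSeq table (grey). The E2F bar is tallest for S-phase genes at 47.4% and the CHR bar for mitotic genes at 77.3%.

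The following 160 bases end just before the start of transcription and are written 5′ to 3′, with E2F, CHR, CCAAT and CRE letters in capitals. The minichromosome maintenance genes Mcm2, Mcm5 and Mcm6 encode subunits of the replicative helicase and were among the S-phase genes with the largest differences below. Cdc20 had the lowest unadjusted p among the mitotic genes, and Mki67 and Cdk1 are the usual markers of dividing cells. The windows lie at chr6:88898781-88898940 (minus strand), chr8:75109349-75109508 (plus strand), chr1:128359706-128359865 (minus strand), chr4:118437344-118437503 (minus strand), chr7:135716380-135716539 (minus strand) and chr10:69352913-69353072 (minus strand).
Mcm2: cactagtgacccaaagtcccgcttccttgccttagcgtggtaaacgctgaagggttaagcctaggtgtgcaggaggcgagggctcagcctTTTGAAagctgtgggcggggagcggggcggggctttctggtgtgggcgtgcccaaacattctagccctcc
Mcm5: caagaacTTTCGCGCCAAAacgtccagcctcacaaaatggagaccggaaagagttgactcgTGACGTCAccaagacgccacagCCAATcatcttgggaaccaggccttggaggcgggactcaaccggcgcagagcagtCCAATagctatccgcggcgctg
Mcm6: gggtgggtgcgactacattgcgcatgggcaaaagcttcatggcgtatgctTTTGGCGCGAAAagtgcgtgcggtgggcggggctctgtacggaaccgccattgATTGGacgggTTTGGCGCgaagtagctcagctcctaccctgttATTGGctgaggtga
Cdc20: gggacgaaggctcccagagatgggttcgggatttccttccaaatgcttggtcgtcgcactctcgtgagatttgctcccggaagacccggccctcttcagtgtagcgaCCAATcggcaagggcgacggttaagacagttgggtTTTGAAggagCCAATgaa
Mki67: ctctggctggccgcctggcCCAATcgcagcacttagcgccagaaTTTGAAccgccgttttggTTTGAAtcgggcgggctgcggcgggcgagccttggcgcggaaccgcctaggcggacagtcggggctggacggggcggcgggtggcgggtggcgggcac
Cdk1: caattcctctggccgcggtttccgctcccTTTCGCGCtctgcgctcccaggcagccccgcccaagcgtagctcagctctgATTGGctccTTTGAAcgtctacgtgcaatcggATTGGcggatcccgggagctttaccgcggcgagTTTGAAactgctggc

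Mcm6 carries 3 E2F matches, at positions -110, -106 and -47 from the start, and the first pair overlaps. In Mcm5 an overlapping pair begins at -153, and a full CRE follows at -99. The Mcm2 window holds none of the E2F letters and a single CHR at -70. Cdc20 has a CHR at -18 between CCAAT boxes at -53 and -8, Mki67 has CHR letters at -116 and -98, and Cdk1 has both an E2F site at -131 and CHR letters at -71 and -15.

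Signals are log2 values, and the median of the arrays lay between 4.98 and 5.01. Replicate 3 of each group carried Y-linked signal (mean over the genes Uty, Kdm5d and Eif2s3y of 7.83 with GFP and 7.67 with CREB-H) and the other 4 arrays did not (3.15 to 3.39). The X-linked gene Xist split the arrays the opposite way, at 11.35, 11.31 and 4.43 with GFP and 11.08, 10.83 and 3.75 with CREB-H. Sex is not among the labels. The supplied gene Creb3l3 read 6.55, 5.93 and 6.40 with GFP and 6.73, 7.25 and 7.58 with CREB-H. The log2 difference was 0.89 (SE 0.25), without overlap but not past the adjustment (limma adjusted p = 0.647). Within the CREB-H group Creb3l3 was lowest in replicate 1 and highest in replicate 3. The liver label was checked on 10 hepatocyte markers, whose median signal was 13.27. Values are given in the order of replicates 1, 2 and 3, and p-values measure only the spread between these samples, each from a mouse of its own as far as the labels say.

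The question put to these genes was whether their signal differed once active CREB-H was supplied to livers that lack their own. For replication and mitosis genes, 50 of 54 were higher with CREB-H, with a median log2 difference of 0.29 and a range from -0.28 to 1.81. Over all genes measured, 50.8% were higher and the median was 0.00. None of the 54 passed limma after Benjamini-Hochberg adjustment over all probe sets (adjusted p of at least 0.613), where 0.00484% of all probe sets and 0.00902% of genes passed. At an unadjusted p under 0.05, 9 members were higher and none lower, against 3.29% and 2.43% of all genes. In 9 members the 3 CREB-H livers all lay above the 3 GFP livers, against 6.25% of genes, and in none did they all lie below, against 6.01%. The list was put together with earlier results of these data known, and its direction is therefore a description without a test. In whole liver, more dividing cells and more RNA per cell cannot be told apart.

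**Figure D2:**
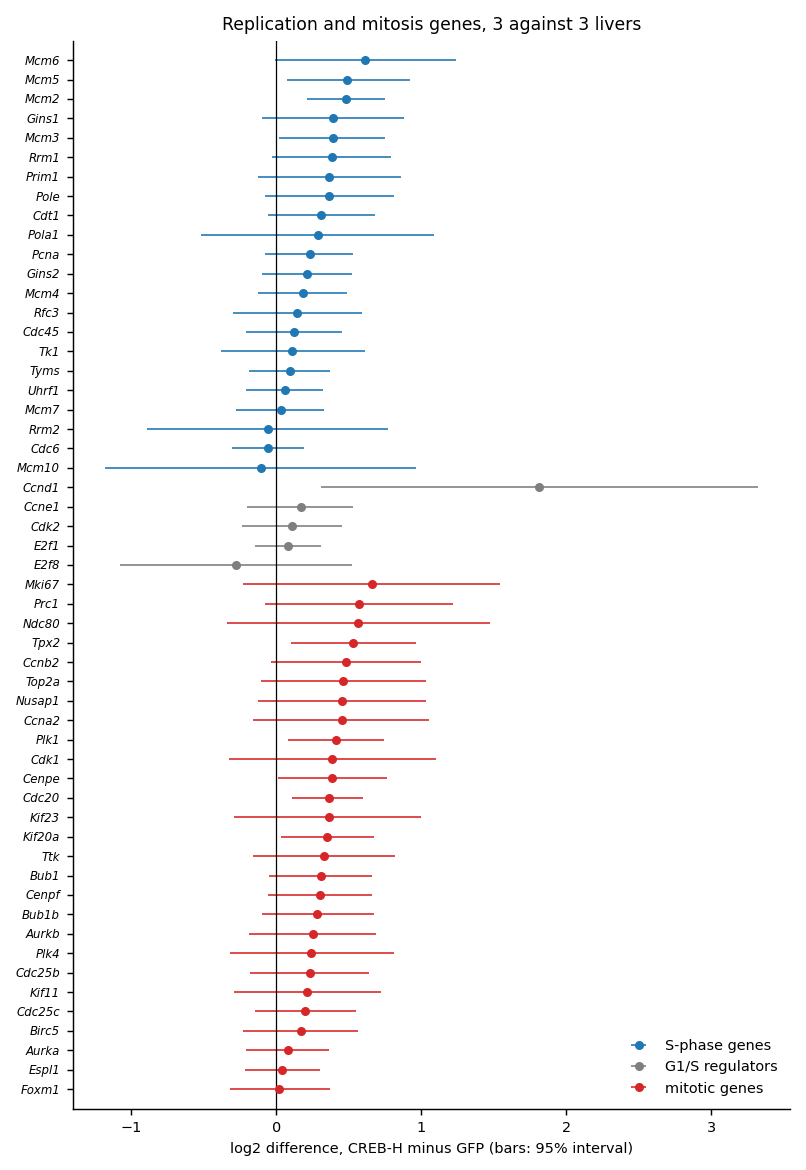
Log2 difference of CREB-H minus GFP (horizontal axis) for 54 members, with 95% intervals from limma, sorted within S-phase genes (blue), G1/S regulators (grey) and mitotic genes (red). All 27 mitotic genes and 19 of 22 S-phase genes lie above 0, most intervals cross 0, and Ccnd1 stands apart at 1.81.

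Among S-phase genes, 19 of 22 were higher, with a median log2 difference of 0.22. For origin licensing and the helicase, 10 of 12 were higher (median 0.26), including the 3 S-phase genes with an unadjusted p under 0.05. At that threshold 3.29% of all genes were higher. Mcm2 read 5.44, 5.71 and 5.69 with GFP and 6.04, 6.10 and 6.14 with CREB-H. Its livers did not overlap, and the CREB-H livers lay within a narrow band. The log2 difference was 0.48 (SE 0.11, 95% interval 0.21 to 0.75), the lowest unadjusted limma p of any member (0.00397, adjusted p = 0.613). A two-sided exact permutation test gave p = 0.1, and with 3 livers a group no smaller value is possible.

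Other helicase subunits followed unequally. Mcm6 read 5.53, 5.53 and 5.48 with GFP and 6.62, 6.25 and 5.52 with CREB-H, so that 2 CREB-H livers were above all controls and replicate 3 was at their level. Its log2 difference of 0.61 (SE 0.26) was the largest among S-phase genes, and it was 0.92 once CREB-H replicate 3 was left out and 0.37 once CREB-H replicate 1 was. Mcm5 read 4.76, 4.89 and 5.19 with GFP and 5.67, 5.51 and 5.15 with CREB-H. Here too CREB-H replicate 3 fell among the controls, and the difference was 0.49 (SE 0.18). Mcm3 differed by 0.39 (SE 0.15). The 2 subunits that follow were chosen after their values were seen, to complete the ring. Mcm4 differed by 0.18 (SE 0.13). Mcm7 read 6.34, 6.64 and 6.37 against 6.41, 6.62 and 6.39, a difference of 0.03 with an interval of -0.28 to 0.33. The licensing factor gene Cdt1 did not overlap between the groups (0.31, SE 0.16). Its partner Cdc6 was the dimmest S-phase gene, with a mean of 4.01, and differed by -0.06 (SE 0.10).

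Mcm10, which joins the helicase to the polymerase, varied along another line. It read 6.53, 6.32 and 7.89 with GFP and 6.57, 6.44 and 7.40 with CREB-H, a group difference of -0.11 (SE 0.45). Both arrays with Y-linked signal stood above the other 4, and the groups lay on top of each other. Among the 4 arrays without Y-linked signal the difference was 0.08.

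All 5 measured genes of the polymerases, the sliding clamp and its loader were higher, by 0.14 to 0.36 (median 0.29), and none at an unadjusted p under 0.05. Pcna, the sliding clamp, was the brightest S-phase gene. It read 8.76, 8.66 and 8.50 with GFP and 8.96, 8.97 and 8.68 with CREB-H, a difference of 0.23 (SE 0.13) with overlap through CREB-H replicate 3. Pole, the catalytic subunit of a replicative polymerase, is named for having a second, dimmer probe set, which differed by 0.10 (SE 0.13) beside 0.36 (SE 0.19).

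Deoxynucleotide supply showed smaller differences (4 of 5 higher with Uhrf1, a copier of DNA methylation, median 0.09). Ribonucleotide reductase joins a large subunit, Rrm1, with a small one, Rrm2, whose protein is made in S phase. Rrm1 read 6.49, 6.73 and 6.74 with GFP and 7.35, 6.99 and 6.75 with CREB-H, without overlap but with CREB-H replicate 3 just above the highest control (difference 0.38, SE 0.17). Rrm2 read 6.03, 5.99 and 5.11 against 5.77, 6.13 and 5.03, a difference of -0.06 (SE 0.35). Both arrays with Y-linked signal were the low ones in these Rrm2 values, in each group. A second probe set of Rrm2, far dimmer with a mean of 2.55, differed by 0.05 (SE 0.11).

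G1/S regulators held the member with the largest difference of all. Ccnd1 encodes cyclin D1, which with its kinase partners drives cells out of G1 and in liver responds to growth signals. It read 7.70, 8.17 and 6.0 with GFP and 9.69, 9.47 and 8.15 with CREB-H. CREB-H replicates 1 and 2 exceeded every control, while replicate 3, at 8.15, lay just under the highest control. The log2 difference was 1.81 (SE 0.63), a 3.51-fold ratio with a 95% interval of 1.24 to 9.95 (limma adjusted p = 0.686). The exact permutation test gave p = 0.2. Each group's array with Y-linked signal was its lowest: between these 2 arrays the difference was 2.15, and among the other 4 it was 1.64. Without GFP replicate 3 it was 1.17.

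The other regulators did not share that difference. Ccne1, the cyclin of S-phase entry, differed by 0.17 (SE 0.15), its kinase Cdk2 by 0.11 (SE 0.15) and the activator E2f1 by 0.08 (SE 0.10, interval -0.15 to 0.31). E2f8, a repressor of E2F targets that is known for its part in hepatocyte polyploidy, was bright among the members. It read 8.46, 8.38 and 7.40 with GFP and 8.05, 8.05 and 7.30 with CREB-H, a difference of -0.28 (SE 0.34), the lowest of any member. The arrays with Y-linked signal were the lowest of both groups, and the other CREB-H livers lay below the other GFP livers.

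Mitotic genes were higher in all 27 measured cases, with a median log2 difference of 0.35 and a range from 0.02 to 0.66. Within them the median was 0.24 for cyclins, kinases and regulators, 0.32 for spindle checkpoint and anaphase genes, and 0.46 for spindle motors, cytokinesis and chromosome genes. Of the 27, 10 were in the brighter 50% of probe sets, and 2 of those were at an unadjusted p under 0.05 when only these probe sets were fitted, against 4.27% of genes. With all probe sets fitted, 1, 2 and 2 of the 11, 8 and 8 measured genes in the functional groups had an unadjusted p under 0.05. At that threshold 3.29% of all genes were higher. Leaving out GFP replicate 3 left 24 of 27 higher.

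Cdc20 activates the ubiquitin ligase that starts anaphase. It read 5.27, 5.26 and 5.11 with GFP and 5.66, 5.50 and 5.56 with CREB-H. The groups were apart, and each was tight. The difference was 0.36 (SE 0.10, interval 0.11 to 0.60; limma adjusted p = 0.647). Plk1, a kinase needed for spindle assembly and mitotic exit, also had no overlap, at 5.08, 5.17 and 4.91 against 5.69, 5.40 and 5.30 (difference 0.41, SE 0.14). Tpx2, which targets Aurora A to the spindle, read 4.71, 4.71 and 4.64 against 5.50, 5.32 and 4.82 (0.53, SE 0.18). Groups were likewise apart for the kinetochore motor Cenpe (0.38, SE 0.16), the cytokinesis motor Kif20a (0.35, SE 0.13) and the cyclin Ccnb2 (0.48, SE 0.22).

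Mki67, the usual marker of cycling cells, had the largest mitotic difference and the brightest mitotic signal. It read 6.37, 6.45 and 5.65 with GFP and 7.30, 7.11 and 6.03 with CREB-H, a difference of 0.66 (SE 0.37, interval -0.23 to 1.54). In both groups replicate 3 was the lowest, and CREB-H replicate 3 lay among the controls. Without CREB-H replicate 3 the difference was 1.05, and without GFP replicate 3 it was 0.40. Top2a, which untangles chromosomes, read 4.81, 4.78 and 4.18 against 5.02, 5.42 and 4.70 (0.46, SE 0.24). Cdk1, the mitotic kinase, read 5.20, 5.72 and 5.58 against 6.31, 6.12 and 5.21 (0.38, SE 0.30), with CREB-H replicate 3 at the bottom of the controls.

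Foxm1, an activator of mitotic genes, was nearly level between the groups. It read 4.40, 4.54 and 4.10 with GFP and 4.52, 4.32 and 4.27 with CREB-H, a difference of 0.02 with an interval of -0.32 to 0.37. The dimmest mitotic gene was the checkpoint kinase Bub1, with a mean of 3.33 and a difference of 0.31 (SE 0.15).

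**Figure D3:**
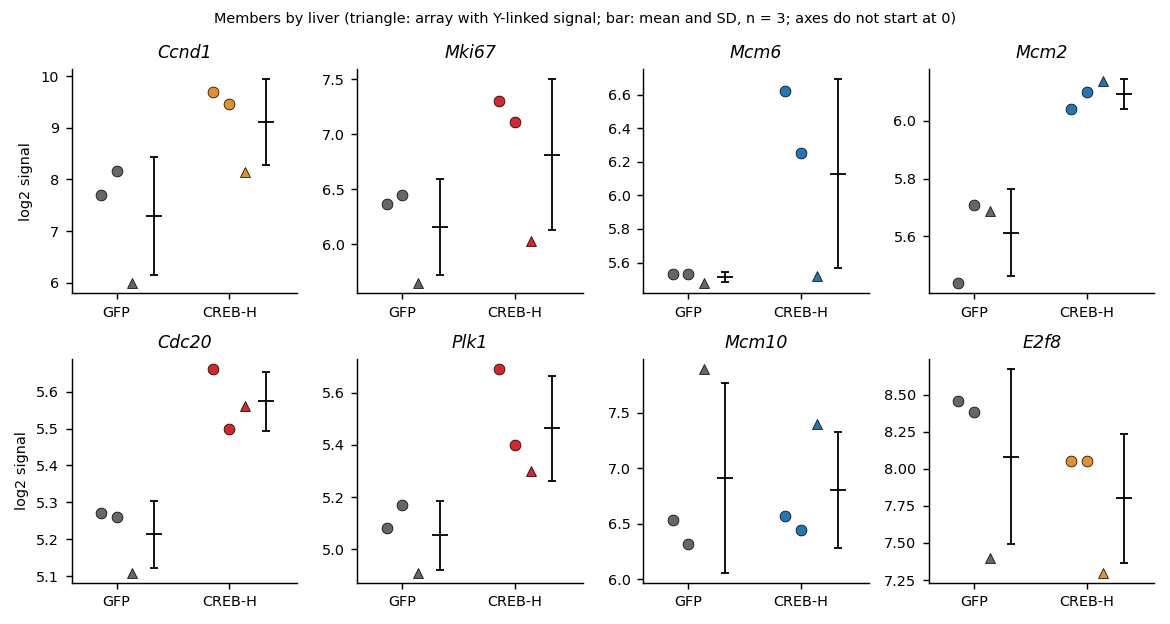
Log2 signal (vertical axes, which do not start at 0) of 8 members in each liver with GFP (grey) or CREB-H (coloured); triangles mark the arrays with Y-linked signal, and bars give mean and SD (n = 3). Mcm2, Cdc20 and Plk1 have no overlap, CREB-H replicate 3 falls among the controls in Mki67 and Mcm6, and Mcm10 is high on both triangle arrays.

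S-phase and mitotic genes were compared directly. The mitotic median difference exceeded the S-phase one by 0.13, and by -0.01 without GFP replicate 3. Within each liver, the median deviation of mitotic genes from their own means, minus that of S-phase genes, was 0.08, 0.01 and -0.18 with GFP and 0.18, -0.07 and -0.02 with CREB-H. The groups overlapped in this gap, which differed by 0.06 between them (SE 0.11, n = 3 livers a group). Median signals of the mitotic set were 4.81, 4.77 and 4.54 with GFP and 5.25, 5.19 and 4.82 with CREB-H, without overlap in this summary although CREB-H replicate 3 was just above GFP replicate 1. Those of the S-phase set were 5.48, 5.65 and 5.59 against 6.06, 6.03 and 5.60, with CREB-H replicate 3 among the controls.

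Single livers weighed heavily on both sets. CREB-H replicate 1 was the highest of the 6 arrays for 30 of 54 members and the lowest for none. Of all 22180 genes it was the highest for 3040 and the lowest for 3298. GFP replicate 3 was the lowest for 31 members, among them 24 of the 27 mitotic genes. Of all genes it was the lowest for 4250, more than any other array. In both groups at once, the array with Y-linked signal was the lowest for 30 of 54 members (55.6%), against 15.8% of all genes. This was so for 19 mitotic and 9 S-phase genes.

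Within the 4 arrays without Y-linked signal, 49 of 54 members were higher with CREB-H (median 0.34; 21 of 22 S-phase and 24 of 27 mitotic genes), against 50.9% of all genes. Between the 2 arrays with Y-linked signal, 40 were higher (median 0.15), against 50.3% of all genes. There the mitotic median was 0.21 and the S-phase median 0.02. A limma interaction term set the 2 differences against each other, but with 1 array of each group on one side its spread comes from the other 4 arrays alone, so it cannot show whether the difference depended on Y-linked signal. No member passed it after adjustment. At an unadjusted p under 0.05 it took in 6 members, against 6.11% of genes. In Mcm5, Pola1, Prim1, Tk1 and Cdk1 the sign turned, with differences of -0.04, -0.49, -0.24, -0.29 and -0.37 between the arrays with Y-linked signal against 0.76, 0.67, 0.66, 0.32 and 0.76 among the others. The sixth, Mcm6, was 0.04 against 0.90. With a term for Y-linked signal in the fit, 18 members were higher at an unadjusted p under 0.05, against 4.38% of genes, and E2f8 was lower. Among the 4 arrays without it, 16 were higher by that threshold, against 4.45% of genes. Without CREB-H replicate 3 the count was 25, against 3.62% of genes. It was 2 without CREB-H replicate 1 (2.32% of genes) and 3 without GFP replicate 3 (4.12%). With array weights it was 15 (3.79%), and it was 16 (3.68%) with replicate numbers fitted as blocks. Again none passed the adjustment in any of these fits. Ccnd1 came nearest, in the fit with a term for Y-linked signal (1.81, SE 0.18, limma adjusted p = 0.215).

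**Figure D4:**
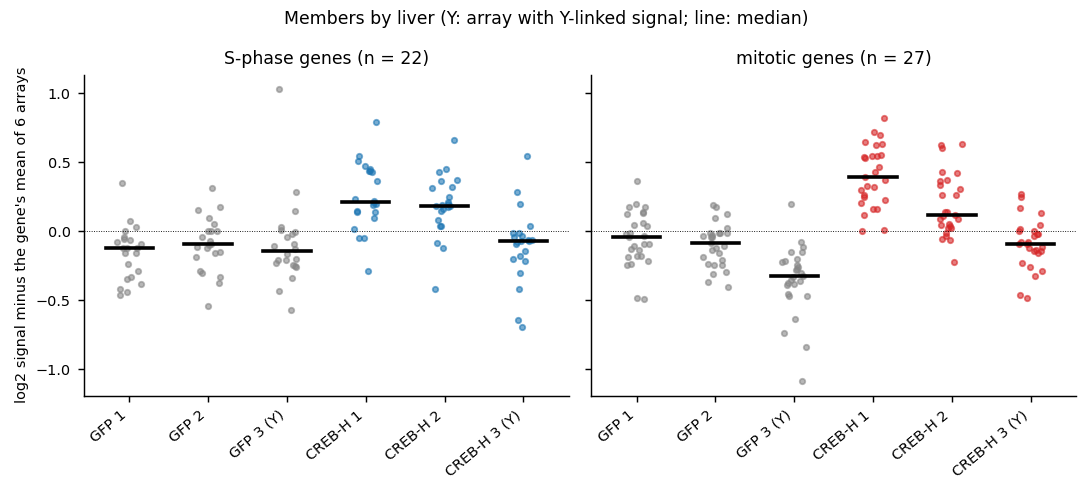
Log2 signal of each member minus its own mean over 6 arrays (vertical axis), by liver, for S-phase genes (left) and mitotic genes (right); points are genes and lines are medians. For mitotic genes the medians run from -0.32 in GFP replicate 3 to 0.39 in CREB-H replicate 1, and CREB-H replicate 3 lies at -0.09.

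The members' median signal of 5.32 was near the median of 5.38 over all genes. The mean of the array medians over all probe sets was 5.0, and 20 of 54 members (37.0%) lay below it, against 42.7% of all genes. The mitotic set alone was dim (17 of 27 below, median signal 4.82). The S-phase set (3 of 22 below, median 5.77) and the G1/S regulators (0 of 5 below, median 7.36) lay above the typical gene. Of the 20 members below the array median 19 were higher with CREB-H (median 0.32), and of the 34 above it 31 were (median 0.24). Over all genes the medians below and above were -0.009 and 0.013. Detection calls were not used here.

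**Figure D5:**
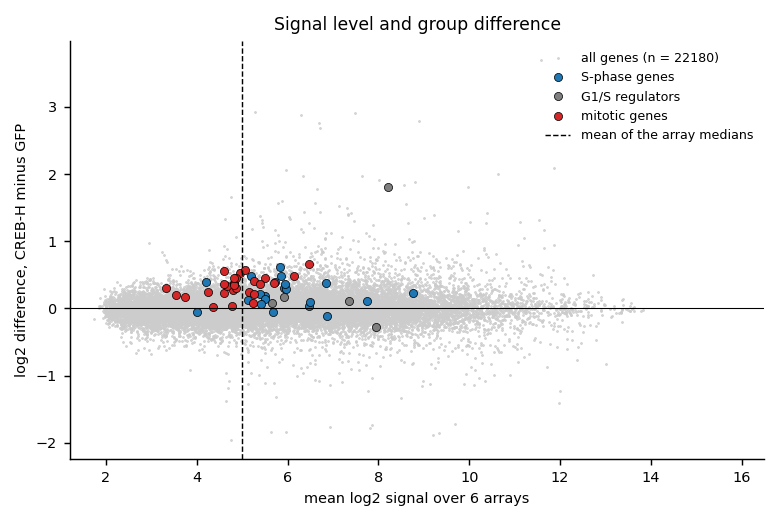
Mean log2 signal over 6 arrays (horizontal axis) against the log2 difference of CREB-H minus GFP (vertical axis) for 22180 genes (grey) and 54 members (coloured); the dashed line is the mean of the array medians, 5.0. Mitotic genes cluster at and below the line, and nearly all members lie above 0 at any signal.

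Further genes of the same processes, from lists that do not hold the members, were also mostly higher with CREB-H in the same 6 livers. These lists too were chosen with earlier results known and are a description without a test. CREB-H replicate 1 was the highest array for 31 of 50 further mitosis genes, and GFP replicate 3 the lowest for 27. For the 38 further replication genes these counts were 12 and 9, against 3040 and 4250 of all 22180 genes. Of 38 further replication genes 30 were higher (median 0.11), against 50.8% of all genes. At an unadjusted p under 0.05, 6 were higher and none lower, against 3.29% and 2.43% of all genes. None passed the adjustment. Between the 2 arrays with Y-linked signal, 22 of the 38 were higher (median 0.03), against 50.3% of all genes. Chaf1b, a chaperone that lays histones on new DNA, read 5.56, 5.29 and 4.88 with GFP and 6.48, 6.45 and 6.06 with CREB-H, a difference of 1.09 (SE 0.20, limma adjusted p = 0.566). The primase subunit gene Prim2 differed by 0.37 (SE 0.10), and Ung, which removes uracil from DNA, by 0.79 (SE 0.20). Of 50 further mitosis genes 44 were higher (median 0.21), and 38 were between the 2 arrays with Y-linked signal (median 0.16). At an unadjusted p under 0.05, 9 were higher and 1 lower, against the same shares of all genes, 3.29% and 2.43%. Nuf2, a kinetochore protein, differed by 0.68 (SE 0.17), the ubiquitin-conjugating enzyme Ube2c by 0.60 (SE 0.15) and the condensin subunit Ncapd2 by 0.35 (SE 0.09). Livers did not overlap in any of these 6 genes, which had the lowest p of their lists, a choice that favours livers without overlap. Over the whole lists, all CREB-H livers lay above all GFP livers in 9 of 38 replication genes and 16 of 50 mitosis genes. The share of all genes was 6.25%. All CREB-H livers lay below in none of the replication genes and 1 of the mitosis genes, against 6.01% of all genes.

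Markers of other cells in the liver were read beside these sets. All 12 Kupffer cell and macrophage markers were higher with CREB-H (median 0.40), none at an unadjusted p under 0.05. Their summed linear signal was 3840, 5710 and 2930 with GFP and 5900, 6990 and 3910 with CREB-H. Here as well, the array with Y-linked signal was the lowest within each group. Endothelial markers (6 of 8 higher, median 0.17), stellate cell markers (6 of 8, median 0.16) and B cell markers (6 of 8, median 0.23) had smaller medians. Of the B cell markers, Cd79a (0.57, SE 0.18) and Ms4a1 (0.38, SE 0.15) had an unadjusted p under 0.05 and no overlap between the groups, and neither passed the adjustment. T and NK cell markers (6 of 13 higher, median -0.01), neutrophil markers (3 of 10, median -0.08) and hepatocyte markers (5 of 10, median 0.01) had medians near or below 0, although the neutrophil gene Retnlg was 0.64 higher (SE 0.13) without overlap. Erythroid markers were measured for 6 of 12 genes (4 higher, median 0.12), with Klf1 at -0.35 (SE 0.13). Cholangiocyte markers were higher in 5 of 7 (median 0.13), with Krt19 at 0.38 (SE 0.12) and Sox9 at -0.36 (SE 0.11). These 4 genes also had an unadjusted p under 0.05, and none passed the adjustment. The part of any of these cells in the signal of the cycle genes was not tested.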

How the data were processed

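RNA from 6 livers was hybridised to 1 array each. The authors deposited 1 value per probe set on what its range (1.42 to 13.9) shows to be a log2 scale. The submitters' processing notes name the Transcriptome Analysis Console. Its version, the normalization and the build were not given in the sources used here. All 41345 probe sets were fitted in R 4.3.3 by limma 3.58.1 with group as the single term, through lmFit and eBayes, with two-sided tests and Benjamini-Hochberg adjustment over all probe sets at 0.05. The model was tested on simulated data. Probe sets were named through the platform annotation, where 23521 probe sets had 1 gene, 1814 several and 16010 no listed gene. RefSeq (GRCm38.p6) held the Entrez ID of 23328. The members, lists and alternatives were chosen with earlier results of these data known. Named members were 11 fixed genes and, in each of the 3 functional sets, the 5 with the lowest unadjusted p and those with the largest and smallest difference and signal. In each further list up to 3 with the lowest p could be named. Single genes had an exact permutation test over arrays. Alternatives were quantile normalization, median centring, filters on dim probe sets, limma-trend with robust fitting, array weights, replicate number as a block, a term for Y-linked signal (mean above 5), the 4 arrays without it, averaging the probe sets of a gene, and each array left out. The comparison of the 2 arrays with Y-linked signal, the interaction term and the per-liver gap between the sets were added after the data were seen. Figures used matplotlib 3.10.9.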

Additional observations from a re-analysis of the deposited data

How the results depend on the processing

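No member passed the adjusted test under any of the 16 alternatives listed above. Members higher with CREB-H numbered 47 to 51 with 1 array left out, and the median log2 difference ran from 0.17 without CREB-H replicate 1 to 0.38 without CREB-H replicate 3. Quantile normalization and median centring kept 50 of 54 higher. Without the dimmest 50% of probe sets 34 members remained, of which 31 were higher, with 10 of 10 mitotic genes higher and 2 of them at an unadjusted p under 0.05. That lower count goes with fewer members tested. The number of members higher at an unadjusted p under 0.05 was 9, and it was 15 with array weights (7 S-phase genes, 3.79% of all genes), 18 with a term for Y-linked signal (12 mitotic, 5 S-phase, and 1 member lower), and 16 among the 4 arrays without such signal (8 S-phase, 1 lower). With 1 array left out it ran from 2 (without CREB-H replicate 1) to 25 (without CREB-H replicate 3), with 1 to 13 mitotic and 1 to 11 S-phase genes; without GFP replicate 3 it was 3. The cause was not tested. The gap of mitotic over S-phase medians ran from -0.01 to 0.16 with 1 array left out. On the pair of arrays with Y-linked signal, the S-phase median came to 0.02.

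Of 24 named members 19 kept their sign in all of these fits. Among the 4 arrays without Y-linked signal, Cdc6 was 0.02, Mcm10 0.08 and Foxm1 -0.05. With 1 array left out, Mcm10 ran from -0.41 to 0.38, Rrm2 from -0.36 to 0.24, Foxm1 from -0.10 to 0.12 and Cdk2 from -0.0008 to 0.23. The groups share replicate numbers, and deviations of same-numbered arrays correlated at 0.078, 0.127 and 0.33. The last of these pairs is the 2 arrays with Y-linked signal. Arrays of different number correlated at -0.232 to 0.159, so the numbers were not taken to pair the mice. With the replicate number as a block, 16 members were higher at an unadjusted p under 0.05, 12 of them mitotic, against 3.68% of all genes, and none passed the adjustment.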

Other observations

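Genes that hold cells out of the cycle gave no common direction. Of 25 such genes 14 were higher with CREB-H (median 0.03), against 50.8% of all genes. At an unadjusted p under 0.05, 4 were higher and none lower, against 3.29% and 2.43% of all genes. In 5 all CREB-H livers lay above all GFP livers and in none below, against 6.25% and 6.01%. By these counts a part of the list was higher, while its differences ran from -1.22 to 0.73. Among the members 50 of 54 were higher, with a median of 0.29. Ccng1, an atypical cyclin that p53 induces, read 8.80, 8.92 and 8.97 with GFP and 9.45, 9.64 and 9.42 with CREB-H, a difference of 0.61 (SE 0.11, limma adjusted p = 0.556). Rbl2, the pocket protein p130 of the DREAM complex that represses cell cycle genes at rest, read 8.95, 8.99 and 9.10 against 9.35, 9.31 and 9.55 (0.39, SE 0.11). Lin9, a MuvB subunit shared by the repressing and the activating complex, differed by 0.69 (SE 0.19). These 3 genes had the lowest p of the list, a choice that favours livers without overlap, and in none of them did the livers overlap. Cdkn1a, the inhibitor p21, was chosen here after its values were seen. It read 10.12, 9.67 and 6.21 with GFP and 7.59, 9.02 and 8.58 with CREB-H, and its spread within the groups exceeded the group difference of -0.27 (SE 1.00).

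Growth signals and further G1 cyclins likewise lay around 0 (13 of 20 higher, median 0.06, none past the adjusted test). Met, the receptor of hepatocyte growth factor, read 9.16, 9.11 and 9.34 with GFP and 9.71, 9.47 and 9.45 with CREB-H, a difference of 0.34 (SE 0.12). Tgfa differed by 0.29 (SE 0.17) and its receptor Egfr by -0.34 (SE 0.21; -0.09 without GFP replicate 3). The other D-type cyclins, chosen after their values were seen, differed by -0.06 (SE 0.11) for Ccnd2 and 0.24 (SE 0.15) for Ccnd3, beside 1.81 (SE 0.63) for Ccnd1.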
